A study of Rattus norvegicus with 7 samples.

Results

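Mir183 and Mir96 are neighbouring microRNA (miRNA) genes that form a cluster with Mir182, and in the retina this cluster marks photoreceptors. They were taken by gene symbol, and they make up 2 of the 5491 noncoding RNA features analysed and 2 of the 571 annotated as miRNA. Mir182 was not analysed here. The samples were retinas of untreated Wistar WU rats at 7 postnatal ages. P0 was the day of birth, and the ages were P1, P3, P5 and P7 in the first week and P10, P15 and P21 after it. Small RNA was sequenced on the Ion Torrent PGM from the pooled RNA of 3 retinas per age, and each age has 1 library value. According to the methods each pool was run 2 times, and values of single runs were not analysed here. With 1 value per age there was no spread between animals and no test between ages, so all differences are descriptions of these libraries. In a whole retina, more photoreceptors and more miRNA per photoreceptor cannot be told apart.

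The hairpins of this cluster are cut from a common primary transcript, and each gives a short mature miRNA that is loaded onto Argonaute and pairs with messenger RNAs mainly through its seed. The cluster is abundant in rods and cones and in the hair cells of the ear, and the maintenance of photoreceptors depends on it. Its level in the retina is known to change with light. In the rat many rods are born after birth, and their outer segments and synapses form later, around the time of eye opening.

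The mature sequences are shown because the seeds set the members apart from other miRNAs. They were taken from RefSeq (GRCr8), are written 5′ to 3′ and have the seed, bases 2 to 8, in capitals. Both members were found there, and miR-182 is given for comparison.
rno-miR-183-5p: uAUGGCACugguagaauucacu
rno-miR-96-5p: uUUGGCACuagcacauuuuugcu
rno-miR-182: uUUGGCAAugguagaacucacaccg
Counted from the 5′ end of miR-96-5p, the seed of miR-183-5p differs by U2A and that of miR-182 by C8A, so that each shares 6 of 7 seed bases with miR-96-5p. Along the 22 bases compared from the 5′ end, miR-183-5p has 18 in common with miR-182 and 13 in common with miR-96-5p. Of the 724 rat mature miRNAs searched, 0 others had the seed of miR-183-5p, miR-96-5p or miR-182. A list of seed relatives therefore had 0 members. None of the 419 rat hairpins searched, other than the members' own, held an exact copy of these mature sequences. The deposited value is for a whole hairpin, so it does not separate miR-183-5p and miR-96-5p from the products of the other arm.
rno-miR-183-3p: uGAAUUACcgaagggccauaa
rno-miR-96-3p: cAAUCAUGugcagugccaauau
RefSeq also lists a hairpin on the opposite strand of Mir183. All 106 bases of this hairpin, Mir3553, lie over Mir183, and its mature product is complementary to all 22 bases of miR-183-5p.
rno-miR-3553: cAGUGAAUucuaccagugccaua
Mir3553 was not analysed here. How strand was used when reads were assigned is not given in the sources used here, so reads of both strands cannot be told apart in the value of Mir183.

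Mir183 (ENSRNOG00000035451.1) lies at chr4:57463569-57463678 on the minus strand of Rnor_6.0, and Mir96 (ENSRNOG00000035624.1) at chr4:57463366-57463471 on the same strand. Both are annotated as miRNA genes, with hairpins of 110 and 106 bases that are 97 bases apart. In the gene order of GRCr8, Mir182 follows Mir96, and the nearest protein-coding genes on either side are Nrf1 and Ube2h. Among the features analysed, 0 others lay within 100 kb of Mir183. The nearest was the long noncoding RNA AC128293.1 at 316 kb, whose level was 222 FPKM at P1 and 438 FPKM at P21.

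Levels are given as FPKM, in which mapped fragments are divided by feature length and by library size. Low FPKM values were whole-number sums of a few steps, each the worth of 1 alignment, and the steps were chosen so that low values, those under 4.2 alignments of P1, come out whole within 0.0002, which all did. There was 1 step at P1, 2 steps at each of P3, P5, P7, P10 and P15, and 4 steps at P21. The larger step at P15 rests on the fewest values, since 85.2% of the low values of that library stayed whole without it. Which run a step belongs to was not worked out. The steps gave an estimate of 297465 alignments for the P1 library, with 498350 for P3, 414812 for P5 and 595853 for P7. The later libraries had 454095 (P10), 451109 (P15) and 1362226 (P21). After P1 these estimates take the steps of a library as equal in signal. If that does not hold, the bounds are widest as a ratio at P15, from 127508 to 774710 alignments, and P21 has bounds of 448449 and 1789568. The share of miRNA features in the estimated alignments was 39.1% in the P3 library and 58.0% to 74.2% in the others, so the P3 library held more of other RNAs.

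Mir183 rested on 1881 alignments at P1, and Mir96 on 265. At the other ages the estimates were 4965 to 22583 for Mir183 and 903 to 5431 for Mir96. All intervals below are 95% counting intervals based on the fewest alignments the steps allow. They cover counting error only and treat each alignment as an independent count. PCR copies are not independent molecules, so the intervals are too narrow where reads are such copies. They also leave out differences between animals, which were pooled.

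Mir183 was the more abundant member at all 7 ages, had its lowest value at P1 and its peak at P10. Its level was 103203 FPKM at P1 and then 286739 at P3, 422301 at P5 and 390263 at P7. It reached 733716 FPKM at P10, followed by 559391 at P15 and 448779 at P21. From P1 to P10 this was a 7.11-fold difference, and P21 remained 4.35-fold above P1. Mir96 also had its lowest value at P1 and its peak at P10, but as deposited it passed through a smaller peak at P3 and a trough at P7. Its level was 14259.7 FPKM at P1 and then 53458.6 at P3, 45702.9 at P5 and 32654.5 at P7. It reached 281916 FPKM at P10, followed by 182431 at P15 and 89062.8 at P21. The P10 level of Mir96 was 19.8-fold that of P1, and its P21 level was 6.25-fold that of P1.

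**Figure D1:**
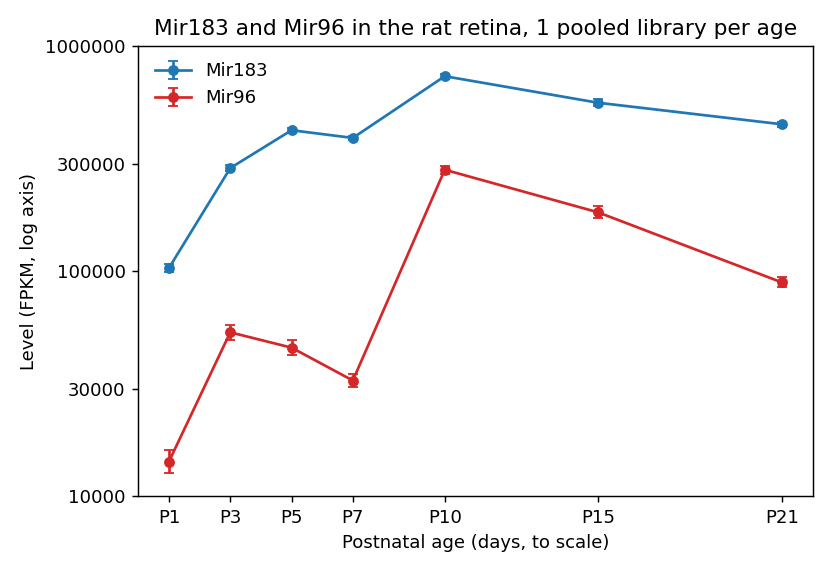
Levels of Mir183 (blue) and Mir96 (red) in FPKM on a log axis against postnatal age in days, with 1 pooled library per age; bars are 95% counting intervals and leave out variation between animals. Both lines start lowest at P1 and peak at P10, and Mir96 dips to 32654.5 FPKM at P7 before it reaches 281916 FPKM at P10.

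The order of the ages for Mir183 was P10, P15, P21, P5, P7, P3 and P1, from the highest level to the lowest. For Mir96 it was P10, P15, P21, P3, P5, P7 and P1. Each pair of neighbours in both orders differed by more than its counting interval, but the closest pairs were small differences. On the log2(FPKM + 1) scale, which is used for all differences, Mir183 at P21 exceeded P5 by 0.09 (interval 0.04 to 0.14) and P5 exceeded P7 by 0.11 (0.07 to 0.16). Such differences have no replicate check and do not hold under every scaling of the libraries, and neither do some larger ones. With the miRNA total and per estimated miRNA alignment, P21 fell below P3 for both members. The P7 level of Mir183 lay below P5 as deposited, by -0.11, and with the miRNA total, by -0.04. It lay above P5 under TMM (trimmed mean of M values) scaling over the miRNA features, by 0.33. With median-of-ratios scaling P7 was above P5 by 0.27, and per estimated miRNA alignment by 0.20. Under TMM scaling the levels of Mir183 at P15 and P10 differed by 0.05 (-0.01 to 0.12), within the counting interval, while Mir96 kept its highest level at P10. Both members were lowest at P1 under each of the 4 other scalings tried.

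A change was called when it reached 2-fold, which is a log2 difference of 1. From P1 to P21, Mir183 rose by 2.12 (2.05 to 2.19) and Mir96 by 2.64 (2.45 to 2.83). These rises were 1.50 and 2.02 with the miRNA total, and 1.12 and 1.64 per estimated miRNA alignment. Both members were thus called higher, as were 31.5% of the 571 miRNA features. Another 32.9% were called lower, and the median difference of all miRNA features was -0.05, both as deposited. With the miRNA total 135 features were called higher and 249 lower, with a median of -0.67. Per estimated miRNA alignment the counts were 105 and 288, with a median of -1.05. By the size of the change, 77 miRNA features exceeded Mir96 and 99 exceeded Mir183, so neither was among the features with the largest rise to P21. At P10, the age at which both members were highest as deposited, they stood further out, and the choice of that age favours them. Mir96 had risen by 4.31 (4.12 to 4.49) and Mir183 by 2.83 (2.76 to 2.90) since P1, where 19.6% of the miRNA features were called higher. That background depends on the scaling, since 112 features were called higher and 150 lower as deposited, but 73 and 195 with the miRNA total and 55 and 252 per estimated miRNA alignment. The rises of the members were 3.92 and 2.45 with the miRNA total and 3.51 and 2.04 per estimated miRNA alignment, for Mir96 and Mir183 in turn. Only 14 miRNA features exceeded the change of Mir96 in that comparison and 31 that of Mir183.

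The first rise fell between P1 and P3. Mir183 rose by 1.47 (1.39 to 1.56) and Mir96 by 1.91 (1.70 to 2.11), while 15.9% of the miRNA features were called higher. Between P3 and P5 the members parted. Mir183 was 0.56 higher (0.50 to 0.62) and Mir96 lower by -0.23 (-0.39 to -0.07), neither of which was called, beside 26.3% of miRNA features called in either direction and 13.4% of those averaging 20 or more estimated alignments. Between P5 and P7 the differences were -0.11 for Mir183 and -0.48 (-0.64 to -0.33) for Mir96, and again neither was called, beside 29.2% in either direction and 17.7% with that filter. The fall of Mir96 in this step was -0.41 with the miRNA total but only -0.17 per estimated miRNA alignment. It was -0.10 with median-of-ratios scaling and -0.04 with TMM scaling, both within the counting error of this step. The depth of the trough at P7 thus depends on the scaling, and with median-of-ratios and TMM scaling P7 is not resolved from P5.

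The largest step of Mir96 came between P7 and P10. It rose 8.63-fold, by 3.11 (3.00 to 3.22), and was called along with 25.9% of the miRNA features called higher. Mir183 was 1.88-fold higher, by 0.91 (0.86 to 0.96), and was not called. Of the 571 miRNA features, 9 had a larger difference than Mir96 in this comparison, and 164 a larger one than Mir183. The size of the step in Mir96 did not rest on the trough at P7 alone, because P10 was also 6.17-fold above P5 and 5.27-fold above P3. TMM scaling raised the miRNA levels of the P7 library by 0.34 and those of P15 by 0.35 on the log2 scale relative to P21. With that scaling the rise of Mir96 from P7 to P10 was 2.67 and the difference of Mir183 was 0.47. The split of the calls between higher and lower also moved, from 148 higher and 123 lower as deposited to 86 higher and 176 lower with TMM scaling.

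From P1 to P7 Mir96 rose by 1.20 (0.997 to 1.39), so its interval reached just below 2-fold. Mir96 was called higher both from P1 to P7 and from P7 to P10, as were 1.93% of the miRNA features, 11 in number. Mir183 was not among them, since its second step was under 2-fold. When an average of 20 estimated alignments was required, a filter chosen after seeing the data, 7 of 344 features remained. They were Mir96, Mir211, Mir129-2, Mir136, AABR07049386.1, AC129244.1 and rno-mir-3556b-1, of which Mir136 and rno-mir-3556b-1 were named after their values were seen. Among the features that passed this filter, Mir96, Mir211 and AABR07049386.1 were called in both steps under all 4 other scalings too. AABR07049386.1 had only 5 alignments at P1 and AC129244.1 only 2, so their rises from P1 rest on few counts.

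**Figure D2:**
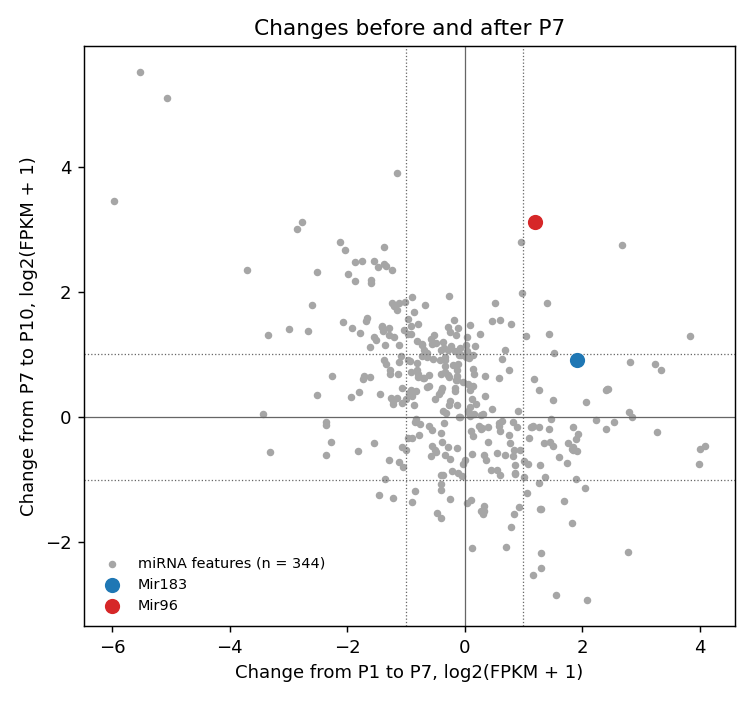
Change of each miRNA feature from P1 to P7 (horizontal axis) against its change from P7 to P10 (vertical axis), both as differences of log2(FPKM + 1), for the 344 miRNA features that average 20 or more estimated alignments. Dotted lines mark 2-fold; both axes share the P7 library, which alone tilts the cloud downwards. Mir96 (red) lies to the upper right at 1.20 and 3.11, and Mir183 (blue) at 1.92 and 0.91.

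After P10 both members were lower as deposited. With TMM scaling Mir183 was not lower at P15 than at P10, with a difference of 0.05 (-0.01 to 0.12). Between P10 and P15 the differences were -0.39 (-0.45 to -0.33) for Mir183 and -0.63 (-0.73 to -0.52) for Mir96, neither called, beside 39.2% of the miRNA features called in either direction. From P15 to P21 Mir96 fell by 1.03 (-1.15 to -0.92), just past 2-fold, and Mir183 differed by -0.32 (-0.38 to -0.26). In that comparison 11% of the miRNA features, 63 in number, were called lower as deposited, and the median of all miRNA features was 0.37. That background depends on the scaling. With the miRNA total 114 were called lower and the median was -0.11, and with TMM scaling 95 and 0.02. The difference of Mir96 was -1.52 with the miRNA total and -1.39 with TMM scaling. By P21 the level of Mir96 was 31.6% of its P10 level and that of Mir183 was 61.2%.

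The ratio of the members within a library does not depend on how libraries were scaled. Mir183 exceeded Mir96 7.24-fold at P1 (6.36 to 8.23), 5.36-fold at P3 (4.93 to 5.84), 9.24-fold at P5 (8.50 to 10.05) and 11.95-fold at P7 (11.1 to 12.8). From then on the ratio was 2.60 at P10 (2.48 to 2.73), 3.07 at P15 (2.86 to 3.28) and 5.04 at P21 (4.77 to 5.33). The ratio was thus highest at P7 and lowest at P10, the next age sampled. Its log2 value changed by -2.20 (-2.32 to -2.08) between these ages, and each of the other 5 steps between neighbouring ages was under 1. It was higher again at P21, where it had changed by 0.72 (0.59 to 0.84) since P15. Expressed as a share of the summed FPKM, Mir96 made up 12.1% at P1, 7.72% at P7, 27.8% at P10 and 16.6% at P21. FPKM of hairpins depends on how well each mature sequence is ligated and amplified, so the ratio at a single age is not a ratio of molecules.

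**Figure D3:**
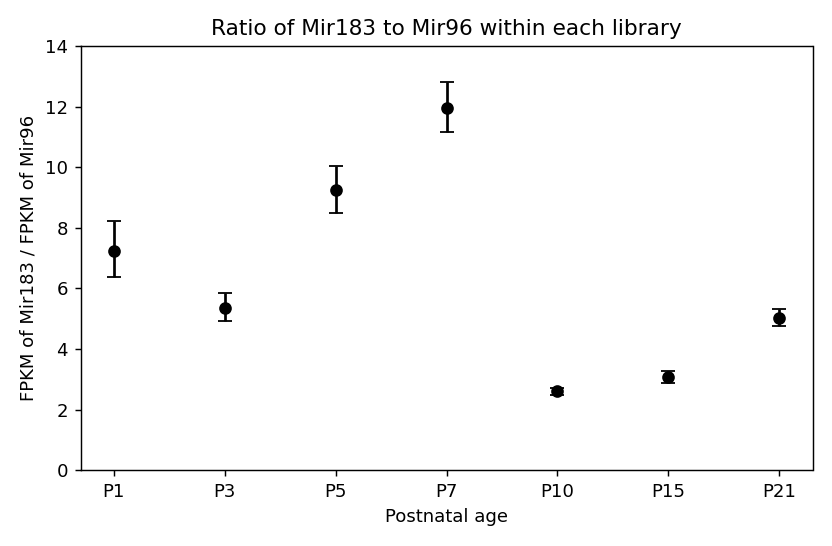
Ratio of the FPKM of Mir183 to that of Mir96 within each library, by postnatal age; points are single pooled libraries and bars are 95% counting intervals. The ratio is 11.95 at P7 and 2.60 at P10, and the intervals of these ages do not overlap with those of any other age.

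Within the libraries, Mir183 moved up from rank 35 among the 571 miRNA features at P1 to 13 at both P3 and P5, 8 at P7 and 5 at P10, by FPKM, and was at 6 and 8 at P15 and P21. Mir96 was at rank 125 at P1, 40 at P3, 53 at P5 and 52 at P7, moved up to 19 at P10, and was at 22 and 39 at the last ages. Some very short features had very high FPKM, and by estimated alignments the ranks were closer to the top except for Mir183 at P15, which stayed at 6. They were 26 at P1 and 4 at P10 for Mir183, and 73 at P1 and 13 at P10 for Mir96. Together the members took 1.21% of the estimated miRNA alignments at P1, 3.03% at P3, 3.48% at P5 and 3.91% at P7. Their share was 6.04% at P10, then 4.62% at P15 and 2.76% at P21. On this scale, too, P10 was the highest age and P1 the lowest. The total includes the 3 hairpins of mir-124, with 82151 of each 1000000 estimated miRNA alignments at P1 and 476488 at P21. A read may be counted at each of these hairpins, which would lower the share of the members, most at P21. Levels per estimated miRNA alignment rest on the same total, and the size of this effect was not worked out.

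Mir204 and Mir211, which share a seed family and are known to be light-regulated in the retina beside the cluster, were also higher at P21 than at P1. Mir204, abundant in the pigment epithelium, differed by 1.55 (1.50 to 1.60), from 85619 to 250320 FPKM, and Mir211 by 6.80 (6.42 to 7.19), from 2090 to 233594 FPKM. With the miRNA total and per estimated miRNA alignment, 1 of this pair was called, and Mir204 was not. Unlike the members of the cluster, they had their highest levels at P15 and P21, and neither was lower at P21 than at P10.

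Of the 9 neuronal hairpins listed, 7 were called higher at P21 than at P1 and 0 lower, beside 31.5% of all miRNA features called higher, with a median difference of 3.56 beside -0.05 for all miRNA features. The list holds Mir124-1, Mir124-2 and Mir124-3, which give the most abundant miRNA of neurons, with differences of 3.52, 3.56 and 3.53. It also holds Mir138-1 and Mir138-2, known from dendrites, with 3.56 and 3.73, and Mir129-1 and Mir129-2 with 4.03 and 5.25. Mir128-1 and Mir128-2 did not reach 2-fold, with 0.35 (0.00035 to 0.69) and 0.62 (0.18 to 1.07), and their direction depends on the scaling, with -0.65 and -0.38 per estimated miRNA alignment. The age of the highest level was P21 for 8 of these 9 and P10 for Mir128-1, so the lower level after P10 seen in Mir183 and Mir96 was not seen in most of this list. That pattern was not particular to the members. Mir135a and Mir135b, named after their values were seen, differed by 2.18 and 2.72 from P7 to P10. From P10 to P21 they differed by -0.89 and -0.99. The share of all miRNA features with this pattern was not counted. The hairpins of mir-124 give the same mature miRNA and had nearly equal alignments, 4925, 4829 and 4874 at P1, and a read may be counted at each of them. The paired hairpins of mir-128, mir-138 and mir-129 likewise each belong to the same miRNA. The 9 hairpins thus stand for fewer miRNAs, and their calls are not independent.

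Of the 9 hairpins of the progenitor and proliferation list, which are the mir-17-92 and mir-106b-25 clusters that promote the cell cycle, 9 were called lower at P21 than at P1 and 0 higher, beside 32.9% of all miRNA features called lower. With TMM scaling 8 were called, because Mir25 changed by -0.99. The median difference was -2.26, with a range of -4.08 to -1.13. Mir20a fell from 970552 to 57224 FPKM and Mir18a from 116105 to 7253 FPKM, while Mir25 had the smallest change, from 10386 to 4747 FPKM. Mir19a fell by 2.65, Mir92a1 by 2.65, Mir93 by 2.26, Mir17 by 2.06, Mir106b by 2.05 and Mir19b1 by 1.43. These lists are described by their counts and medians only.

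**Figure D4:**
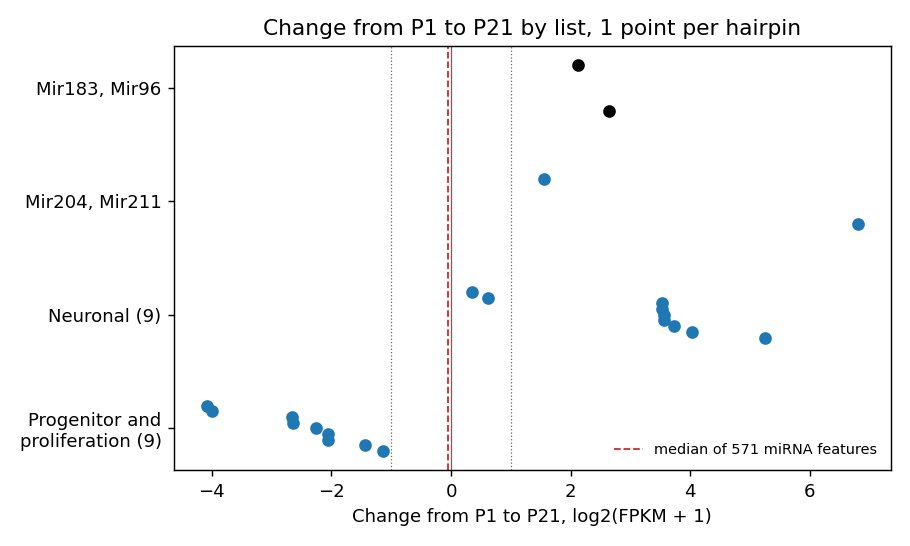
Change from P1 to P21 as a difference of log2(FPKM + 1), with 1 point per hairpin, for the members, Mir204 and Mir211, the 9 neuronal hairpins and the 9 progenitor and proliferation hairpins. Dotted lines mark 2-fold and the dashed line the median of the 571 miRNA features, -0.05. The members lie at 2.12 and 2.64, on the side of the neuronal hairpins, and all points of the progenitor and proliferation list lie below -1.

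The pattern of the summed FPKM of both members was set against 566 other miRNA features with a mean of at least 100 FPKM, by Pearson r of log2(FPKM + 1) over the 7 ages. The most alike were Mir3557 (r = 0.95), AABR07049386.1 (r = 0.95), AC129244.1 (r = 0.91), Mir124-3 (r = 0.90) and Mir124-2 (r = 0.90). The least alike were Mir216a (r = -0.92) and Mir34b (r = -0.91). The points share their libraries and a common trend with age, so r describes the shape of 7 values and carries no p. Only AABR07049386.1 shared the peak at P10, with 213 FPKM at P1, 568 at P7, 2007 at P10 and 1441 at P21. It rested on a mean of 33.6 estimated alignments, with only 5 at P1. Mir3557 was nearly level after P10, with 36408 FPKM at P10 and 38836 at P21. AC129244.1 rose on to 16104.5 FPKM at P21 from 247 at P1, where it had 2 alignments. Mir216a fell from 5639 FPKM at P1 to 755 at P21, and Mir34b from 15710 to 5246. The choice depended on the ages used. When P1 was left out, 1 of these 5 remained among the 5 most alike, and when P10 or P15 was left out, 2 did. Without P3, P7 or P21 in turn 3 remained, and only leaving out P5 kept all 5. Mir183 and Mir96 themselves had r = 0.88 with each other.

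**Figure D5:**
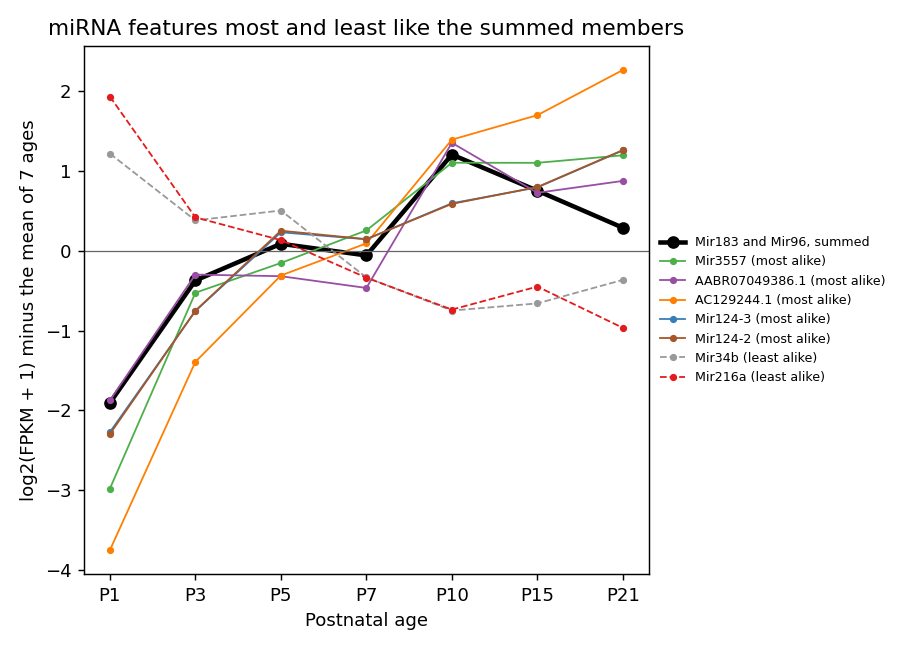
Level of the summed members (black) and of the 5 most alike (solid) and 2 least alike (dashed) miRNA features by postnatal age, as log2(FPKM + 1) minus its mean over the 7 ages. The lines of Mir124-2 and Mir124-3 nearly coincide; the black line peaks at P10 with AABR07049386.1, and most of the other solid lines are highest at P21.

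The label of the tissue was checked against a miRNA of neurons and miRNAs of tissues that a dissection could carry along. The 3 hairpins of mir-124 together took from 82151 to 476488 of each 1000000 estimated miRNA alignments (ppm), led by Mir124-1 at P1 and by Mir124-2 at P21. Since mir-124 is abundant in neurons, these values do not set the retina apart from other neural tissue. Of 6 muscle hairpins listed, 3 were found by symbol, and 0 of them were at 0. Their summed level was 163 ppm at P1, 1625 at P3 and 987 at P5. It was 58.8 ppm at P7 and 89.9 at P10, with 50.7 and 77.7 at the last 2 ages. Mir206, specific to skeletal muscle, had 130765 FPKM at P3 and 72154 at P5, compared with 1652 to 8533 at the other ages. These muscle values were highest at the ages of the first rise of the members, and their part in it was not tested. At P3 the members together were 2.06-fold above the muscle hairpins by summed FPKM and 18.7-fold by estimated alignments.

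Of 4 blood hairpins, 2 were found, led by Mir451a, with a summed level from 169 ppm at P3 to 781 at P1. The lens and cornea hairpins Mir184 and Mir205 ranged from 40.8 ppm at P7 to 1376 at P1, where Mir184 led. Their sum was 165 ppm at P10, higher than at P7, and Mir205 alone went from 28.1 ppm at P1 to 298 at P3 and 277 at P5. The part of these in the changes of the members was not tested. Of 4 hairpins of vessels, 3 were found, led by Mir126a of the endothelium. Their sum was 13203 ppm at P1, 6377 at P3 and 5587 at P5. It was 2458 ppm at P7 and 5575 at P10, with 9627 and 7263 at the last 2 ages. It was lowest at P7, the age of the trough in Mir96 as deposited, and higher at P10. The part of this in the step from P7 to P10 was not tested. The pigment epithelium pair, Mir204 and Mir211, took 32440 ppm at P7 and 37902 at P10, both dominated by Mir204. Mir204 was nearly level on this scale, with 30683 and 30386 ppm, while Mir211 went from 1757 to 7516 ppm, or 6.68-fold by FPKM. It rose in the same step as Mir96, and its part in that step was not tested. None of the hairpins found for these lists was at 0 at any age, and by summed FPKM the members exceeded the muscle, blood, lens and cornea, vessel and pigment epithelium lists at all 7 ages, the last by the least, with 1.11-fold at P21. By estimated alignments, which are not divided by length, they were below the vessel list at P1, at 0.91 of its sum, and below the pigment epithelium pair at P1 (0.52), P3 (0.79), P15 (0.79) and P21 (0.55).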

How the data were processed

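Reads were trimmed by the authors and aligned to Ensembl noncoding RNAs, and levels came from Cufflinks, Cuffmerge and Cuffdiff (2.2.1.3 per the submitters' processing notes; build Rnor_6.0). The authors deposited FPKM values for 21 pairs of ages. A feature has the same FPKM in every pair, so 1 value per age was used. The normalization between libraries is not given in the sources used here. Deposited fold changes, test statistics, p-values and q-values are the authors' comparisons and were not used.

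Differences were taken on the log2(FPKM + 1) scale. Alignments were recovered from the steps between low values, which was tested on simulated data; where a library has 4 steps, as P21, a step can be missed or wrong even if all low values come out whole. Versions of the search in development gave other steps at P15 and P21, and the version kept was chosen for making all low values whole. What 1 alignment is worth came directly from 454 of the 724 feature lengths, and by interpolation for the others. No count test was run. Members and lists were chosen with earlier results of these data known. The miRNAs named are the members, the lists, features within 100 kb, and the 5 most and 2 least alike. Alternatives were TMM scaling (30% of ratios and 5% of levels trimmed at each end), median-of-ratios scaling, scaling to the miRNA total, pseudocounts of 0.1 and 10 FPKM, each age left out, each member alone, and filters. Levels per estimated miRNA alignment, the filter at 20 alignments, the list counts and most background counts under other scalings, and all alternatives for the step from P7 to P10 were chosen after seeing the data. Mir-9 is not reported here. Calculations used Python 3.11.15 with numpy 2.4.6 and pandas 2.3.3, and figures matplotlib 3.10.9.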

Additional observations from a re-analysis of the deposited data

How the results depend on the processing

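As deposited, the log2 change from P1 to P21 was 2.12 for Mir183, 2.64 for Mir96 and 2.19 for their sum. It stayed past 2-fold in the same direction under every alternative run. Scaling to the miRNA total gave 1.50, 2.02 and 1.57, levels per estimated miRNA alignment gave 1.12, 1.64 and 1.19, median-of-ratios scaling gave 2.20 for Mir183 and 2.27 for the sum, and TMM scaling gave 2.26 and 2.33. For the step from P7 to P10, the main values were 0.91 for Mir183, 3.11 for Mir96 and 1.26 for the sum. They became 0.50, 2.70 and 0.86 with the miRNA total, 0.65, 2.85 and 1.01 with median-of-ratios, 0.47, 2.67 and 0.83 with TMM, and 0.27, 2.47 and 0.62 per estimated miRNA alignment. The sum thus lost its call with 3 of these scalings, while Mir96 kept it. The shifts of all miRNAs against P21 are one source of these differences: TMM shifted P7 by 0.34 and P15 by 0.35, and levels per alignment shifted P1 by 1.00 and P7 by 0.85. The sum was highest on day 10 under every scaling, but with TMM scaling P10 exceeded P15 by only 0.01 (-0.04 to 0.06), so that peak is not resolved there. Each member alone as deposited also peaked on day 10. The lowest level was on day 1. Leaving out ages gave ranges of 10 to 15 for the highest and 1 to 3 for the lowest day, which follow from the order of the ages alone and say nothing of how stable the peak is. The pseudocounts moved no change beyond its counting interval. The 9 counts of miRNA features past 2-fold that serve as background often moved by over 1.5 times: 6 with the filter at 20 estimated alignments, 4 per estimated miRNA alignment, 3 with the miRNA total, 2 with TMM scaling, and 0 with median-of-ratios scaling or the filter at 100 FPKM. Limited to features averaging 20 or more estimated alignments they were 101 in place of 188 lower at P21 than P1, 54 in place of 91 higher at P3 than P1, 46 in place of 150 for P3 to P5, 61 in place of 167 for P5 to P7, 96 in place of 224 for P10 to P15 and 26 in place of 63 lower at P21 than P15. These are counts of 344 in place of 571 features; as shares, 29.4% in place of 32.9% were lower at P21 than P1, 15.7% in place of 15.9% higher at P3 than P1, 27.9% in place of 39.2% for P10 to P15 and 7.56% in place of 11% lower at P21 than P15. With TMM scaling they were 86 in place of 148 higher at P10 than P7 and 95 in place of 63 lower at P21 than P15. Of the calls from P1 to P21, 180 were higher and 188 lower as deposited, but 135 and 249 with the miRNA total and 105 and 288 per estimated miRNA alignment. The counts higher at P10 were 73 and 55 in place of 112 against P1 and 92 and 63 in place of 148 against P7 with these 2 scalings, and 114 features in place of 63 were lower at P21 than P15 with the miRNA total. In the comparison lists, Mir25 lost its call from P1 to P21 with TMM scaling and Mir204 with the miRNA total and per estimated miRNA alignment; these list counts, and the background counts under scalings other than TMM, were chosen after seeing the data. No paired analysis was possible because each age had 1 library. Depth limits Mir96 most at P1, where it rests on 265 alignments, and differences between animals have no measure here.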

Other observations

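The 9 miRNA features with a larger rise than Mir96 from P7 to P10 were named after their values were seen. The choice favours low values at P7 and high values at P10. Of these, 3 had at least 20 estimated alignments at both ages. Mir30c2 went from 7271 to 330539 FPKM and Mir30c1 from 8510 to 290932 FPKM, and Mir32 went from 1889 FPKM on 22.0 estimated alignments to 28179 FPKM. The others rested on fewer than 20 estimated alignments at P7, with 4.15 for Mir3585, 6.67 for Mir184 and 11.9 for AC135674.1.

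The nearest miRNA genes to the cluster on chromosome 4 among the features analysed were Mir29b1 and Mir3556a, both about 880 kb from Mir183. Mir29b1 went from 4886 FPKM at P1 and 5087 at P7 to 10189 at P10, 28916 at P15 and 175781 at P21, and Mir3556a, which lies near it on the opposite strand, was 2378 FPKM at P1 and 81518 at P21. Their highest level was at P21, at 36.0-fold and 34.3-fold that of P1, without the peak at P10 seen in Mir183 and Mir96. They lie outside the rule for named miRNAs and were chosen after their values were seen.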
